A study of Mus musculus with 6 samples.

Results

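Expression of 9 genes of the B lineage was examined in azoxymethane-induced colon tumors, comparing 3 WT with 3 Chrm3-/- mice. *Cd79a*, *Cd79b*, *Ms4a1*, *Cd22*, *Blk* and *Cr2* were taken as genes of B cells, and *Pou2af1*, *Xbp1* and *Tnfrsf17* as genes that plasma cells use. The genes were chosen by name, and every probe that the array annotation assigns to one of them was included. Of the 9 genes, 8 had a probe, out of 19057 genes with a symbol on the array, and *Cd79a* had none in the annotation used here. The 8 genes were read by 14 probes, of which 12 were bright enough to be tested. The 2 probes that were not tested were 1 of 3 for *Cd22* and 1 of 2 for *Cr2*.

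The mice were males of a mixed 129S6/SvEvTac X CF1 background, given in the descriptions as 7 months old. All were treated with azoxymethane (AOM), a carcinogen that acts on the colon. Chrm3-/- mice lack the M3 muscarinic receptor gene in every cell and not only in the tumor epithelium, and WT mice of that background served as controls. RNA of colon tumor tissue from 3 mice of each genotype was hybridized to 1 Illumina BeadChip array per mouse. Each p-value therefore sets the genotype difference against the spread between mice, from which tumor sampling and array noise cannot be separated.

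B cells of the gut lie mainly in lymphoid follicles. There, chemokines made by stromal cells draw in B cells and T cells, and follicular dendritic cells hold antigen on complement receptors. A B cell that turns into a plasma cell switches off much of its B cell program, enlarges its endoplasmic reticulum (ER) and secretes antibody, mostly IgA in the gut. Plasma cells leave the follicle and settle singly in the lamina propria, between the crypts. The 9 genes fall on different sides of this change. *Cd79a* and *Cd79b* encode the signaling chains of the B cell receptor, *Ms4a1* encodes the surface protein CD20, *Cd22* an inhibitory coreceptor and *Blk* a Src family kinase of the B lineage. *Cr2* encodes complement receptors of B cells and follicular dendritic cells. *Pou2af1* encodes OBF-1, a coactivator of octamer-binding factors that is made in B cells and in plasma cells. *Xbp1* encodes the transcription factor that drives the secretory program of plasma cells, and it is also used by goblet cells and other secretory epithelium. *Tnfrsf17* encodes BCMA, a survival receptor of plasma cells.

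Promoters from RefSeq on GRCm38.p6 were found for 6 of the 9 genes. Of these, 4 are shown because their genes behaved differently across the arrays, as described below. *Cd22* and *Pou2af1* varied widely between tumors, whereas *Xbp1* varied less than these and *Tnfrsf17* was dim. The SD of *Xbp1* within genotypes, 0.38 log2 units, was still larger than on 78.8% of tested probes. Each window runs 5′ to 3′ from 250 bases before the start of the gene to 50 bases after it. Capitals mark matches, on either strand, to the octamer core TGCAAAT, to CCCNNGGG for EBF1, to GAGGAA for PU.1, to the cyclic AMP response element TGACGT and to the TATA box TATAAA.
Cd22 (chr7:30878979-30879278, minus strand): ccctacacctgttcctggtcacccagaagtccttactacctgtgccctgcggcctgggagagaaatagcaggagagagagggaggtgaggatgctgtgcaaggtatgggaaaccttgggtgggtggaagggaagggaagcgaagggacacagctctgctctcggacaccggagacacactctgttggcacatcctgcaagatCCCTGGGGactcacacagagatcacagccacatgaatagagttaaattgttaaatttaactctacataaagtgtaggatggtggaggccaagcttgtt
Pou2af1 (chr9:51213440-51213739, plus strand): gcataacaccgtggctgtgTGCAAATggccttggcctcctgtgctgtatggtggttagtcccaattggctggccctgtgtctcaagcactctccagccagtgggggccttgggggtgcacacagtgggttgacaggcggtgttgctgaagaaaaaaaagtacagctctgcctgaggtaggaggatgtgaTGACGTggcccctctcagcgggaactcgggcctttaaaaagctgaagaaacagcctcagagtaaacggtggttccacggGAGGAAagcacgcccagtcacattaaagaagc
Xbp1 (chr11:5520391-5520690, plus strand): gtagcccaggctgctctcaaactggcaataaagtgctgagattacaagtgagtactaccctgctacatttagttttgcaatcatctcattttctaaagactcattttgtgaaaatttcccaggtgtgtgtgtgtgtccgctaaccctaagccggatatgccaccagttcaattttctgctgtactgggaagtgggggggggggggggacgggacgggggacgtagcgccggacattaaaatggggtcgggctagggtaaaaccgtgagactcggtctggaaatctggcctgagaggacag
Tnfrsf17 (chr16:11313559-11313858, plus strand): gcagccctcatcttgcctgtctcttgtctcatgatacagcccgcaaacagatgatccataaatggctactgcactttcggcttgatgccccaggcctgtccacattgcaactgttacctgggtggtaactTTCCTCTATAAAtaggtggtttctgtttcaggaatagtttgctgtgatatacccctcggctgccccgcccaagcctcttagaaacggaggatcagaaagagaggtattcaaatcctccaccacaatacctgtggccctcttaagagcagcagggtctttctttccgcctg
The *Cd22* window held CCCNNGGG with its first base at -48 from the start, a match found in 13.7% of 32851 promoter windows of this length. In the *Pou2af1* window the octamer core lay at -231, TGACGT at -61 and GAGGAA at 19, letters that 4.02%, 7.51% and 28.3% of the windows hold. The *Tnfrsf17* window held GAGGAA on the opposite strand at -120, directly beside TATAAA at -114, which 13.6% of the windows hold. The *Xbp1* window held none of these letters. Among the windows not shown, that of *Cr2* also held none, and *Cr2* was, like *Cd22*, highest in Chrm3-/- replicate 1. The window of *Cd79a*, which had no probe, held GAGGAA on the opposite strand at -140. These matches describe the sequence only and were not tested for binding.

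The normalized intensities of the 6 arrays share an identical distribution, and 46.1% of probes on each array lie under 2, where values were read as not above background. One array, Chrm3-/- replicate 1, stood apart from the other 5. Over all probes its correlation with them was 0.916 to 0.95, against 0.970 to 0.986 among the rest. Results that rest on this array are therefore given with and without it. The *Chrm3* probe read 9.06, under 2 and under 2 in WT tumors and 25.1, 32.1 and 21.9 in Chrm3-/- tumors. Where this probe lies with respect to the deletion was not known here, and it therefore checks neither the genotypes nor the labels. *Krt8*, a keratin of colon epithelium, read 13368 to 18551 over the 6 arrays, whereas the probe of *Epcam*, an epithelial surface marker, was near background at 8.67, 11.1 and 12.1 in WT tumors and under 2, under 2 and 2.03 in Chrm3-/- tumors (unadjusted p = 0.0107, adjusted p = 0.792 in limma).

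No member differed between the genotypes by the test, and the B cell genes were mostly highest in 1 Chrm3-/- tumor, with WT and the other knockout tumors overlapping on most probes below it. Of the 12 tested probes, 0 passed an adjusted p of 0.05 in limma whereas 0.124% of all tested probes did. An unadjusted p under 0.05 was found for 0 of the 12, against 4.82% of all tested probes. The groups overlapped on all 12, and over all tested probes 10.6% showed groups that did not overlap. On 11 of the 12 the highest of the 6 arrays was Chrm3-/- replicate 1, against 24.4% of all tested probes. It lay at least 1 log2 unit above every other array on 6 of the 12, against 3.37%. The brightness filter used the mean over all 6 arrays, so it favored dim probes that were high in Chrm3-/- replicate 1. The shares of all tested probes come from the same filter. These tumors were measured in bulk, where fewer cells of a type and less RNA per cell cannot be told apart.

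**Figure D1:**
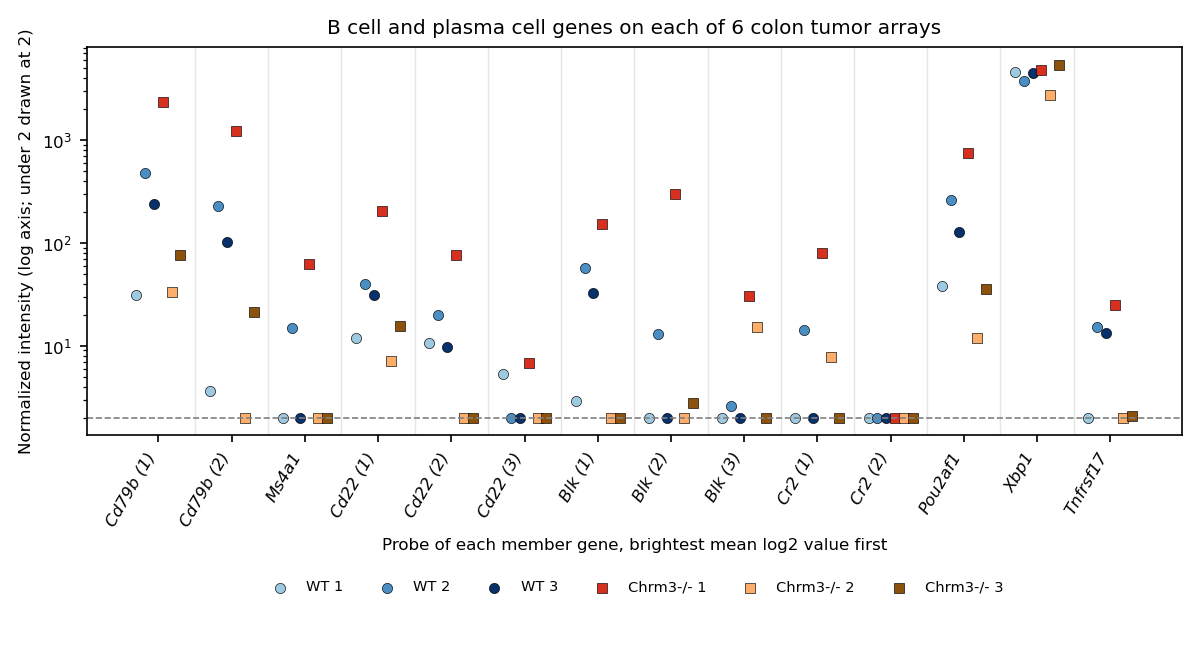
Normalized intensity on a log axis for each of the 14 probes of 8 genes, with 1 point per array, circles for WT and squares for Chrm3-/- tumors. Values under 2 are drawn on the dashed line at 2. Chrm3-/- replicate 1 is the highest point on 11 of the 12 tested probes, and *Xbp1* is the exception.

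*Cd79b*, the member that all B cells carry, showed the widest spread. Its brighter probe read 31.3, 477 and 238 in WT tumors and 2354, 33.6 and 77.1 in Chrm3-/- tumors. WT tumors averaged 249 ± 223 (SD, n = 3), and Chrm3-/- tumors 822 ± 1327 (SD, n = 3). The highest array, Chrm3-/- replicate 1, was 4.93-fold above the next array, WT replicate 2, and WT replicate 1 was the lowest of all 6. The log2 fold change of Chrm3-/- over WT, taken on intensity plus 50, was 0.35 (standard error 1.32, 95% interval -2.78 to 3.48, adjusted p = 0.991 in limma). The SD within genotypes was 2.11 log2 units, larger than on 99.7% of tested probes. Without Chrm3-/- replicate 1 the log2 fold change became -1.16 (standard error 0.74, adjusted p = 0.747). The second probe read 3.6, 232 and 102 in WT tumors and 1229, under 2 and 21.5 in Chrm3-/- tumors. It put the 4 highest arrays in the order of the first probe, with Chrm3-/- replicate 1 at 5.31-fold of WT replicate 2 and a log2 fold change of 0.35, or -1.11 without Chrm3-/- replicate 1.

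The CD20 gene *Ms4a1*, which plasma cells switch off, was above background in 2 tumors. It read under 2, 15.0 and under 2 in WT and 63.1, under 2 and under 2 in Chrm3-/- tumors. The tumors with signal, 1 of each genotype, were the same 2 in which *Cd79b* was highest. Between them the intensity differed 4.22-fold, and the log2 fold change between genotypes was 0.27 (95% interval -0.46 to 1.00).

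*Cd22*, the inhibitory coreceptor whose promoter is shown above, was measured on all 6 arrays by its brightest probe. The values were 11.8, 39.9 and 31.2 in WT tumors and 206, 7.2 and 15.7 in Chrm3-/- tumors. Again Chrm3-/- replicate 1 led, at 5.18-fold of WT replicate 2, and Chrm3-/- replicate 2 was lowest. Between genotypes the log2 fold change was 0.36 (standard error 0.55), and it became -0.32 without Chrm3-/- replicate 1. The second probe read 10.6, 20.0 and 9.8 in WT tumors and 75.8, under 2 and under 2 in Chrm3-/- tumors. With Chrm3-/- replicate 1 left out, both remaining knockout tumors lay below all 3 WT tumors on this probe (log2 fold change -0.30, standard error 0.10, unadjusted p = 0.0235 and adjusted p = 0.615 in limma). The third probe was too dim to test and exceeded 2 only in WT replicate 1 and Chrm3-/- replicate 1.

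The 3 probes of *Blk*, the B lineage kinase, shared their highest array but not the size of its lead. The first read 2.9, 57.0 and 32.7 in WT tumors and 154, under 2 and under 2 in Chrm3-/- tumors. The second read under 2, 13.0 and under 2 in WT tumors and 302, under 2 and 2.8 in Chrm3-/- tumors. The third read under 2, 2.6 and under 2 in WT tumors and 30.7, 15.4 and under 2 in Chrm3-/- tumors. Its value in Chrm3-/- replicate 1 was above that in WT replicate 2 by 2.71-fold on the first probe and by 23.1-fold on the second. The log2 fold changes between genotypes were 0.07, 0.83 and 0.32, and the third, with an unadjusted p of 0.0833 in limma, had the smallest p of the 12 tested probes. On the third probe alone did the log2 fold change stay above 0 without Chrm3-/- replicate 1, at 0.16, whereas on the first it became -0.60.

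*Cr2*, shared by B cells and the follicular dendritic cells of a follicle, read under 2, 14.4 and under 2 in WT tumors and 79.7, 7.8 and under 2 in Chrm3-/- tumors. It was thus above background in the tumors with signal for *Ms4a1* and in Chrm3-/- replicate 2. The intensity of Chrm3-/- replicate 1 was 5.54-fold that of WT replicate 2. Between genotypes the difference on the log2 scale was 0.39 (standard error 0.34), and -0.02 without Chrm3-/- replicate 1. The other *Cr2* probe was under 2 on all 6 arrays.

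*Pou2af1*, which serves B cells and plasma cells alike, followed the order of *Cd79b* at the top. It read 38.5, 265 and 129 in WT tumors and 758, 11.9 and 35.5 in Chrm3-/- tumors. In Chrm3-/- replicate 1 it was 2.87-fold above WT replicate 2. The other 2 knockout tumors were below every WT tumor. The log2 fold change was -0.07 (standard error 0.99, 95% interval -2.42 to 2.27, adjusted p = 0.997 in limma). Without Chrm3-/- replicate 1 it was -1.23 (standard error 0.51, unadjusted p = 0.0497, adjusted p = 0.670).

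*Tnfrsf17*, the member most restricted to plasma cells, was dim throughout. It read under 2, 15.4 and 13.3 in WT tumors and 25.1, under 2 and 2.1 in Chrm3-/- tumors. The 3 tumors with values over 10 were those in which *Cd79b* was highest, but Chrm3-/- replicate 1 exceeded WT replicate 2 by only 1.63-fold. Between genotypes the difference on the log2 scale was -0.03 (standard error 0.17), and the offset of 50 holds back differences at such low intensities.

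*Xbp1* was bright in every tumor and did not follow the other members. The values were 4611, 3773 and 4496 in WT tumors and 4790, 2758 and 5449 in Chrm3-/- tumors, with means of 4294 ± 454 (SD, n = 3) and 4332 ± 1403 (SD, n = 3). Chrm3-/- replicate 3 was highest, and WT replicate 2, second for *Cd79b*, was below both other WT tumors. The log2 fold change was -0.04 (standard error 0.26, 95% interval -0.66 to 0.58, adjusted p = 0.994 in limma). *Muc2*, the goblet cell mucin, was likewise bright in every tumor, at 5895 to 18449. How much of the *Xbp1* signal came from plasma cells and how much from secretory epithelium was not tested.

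**Figure D2:**
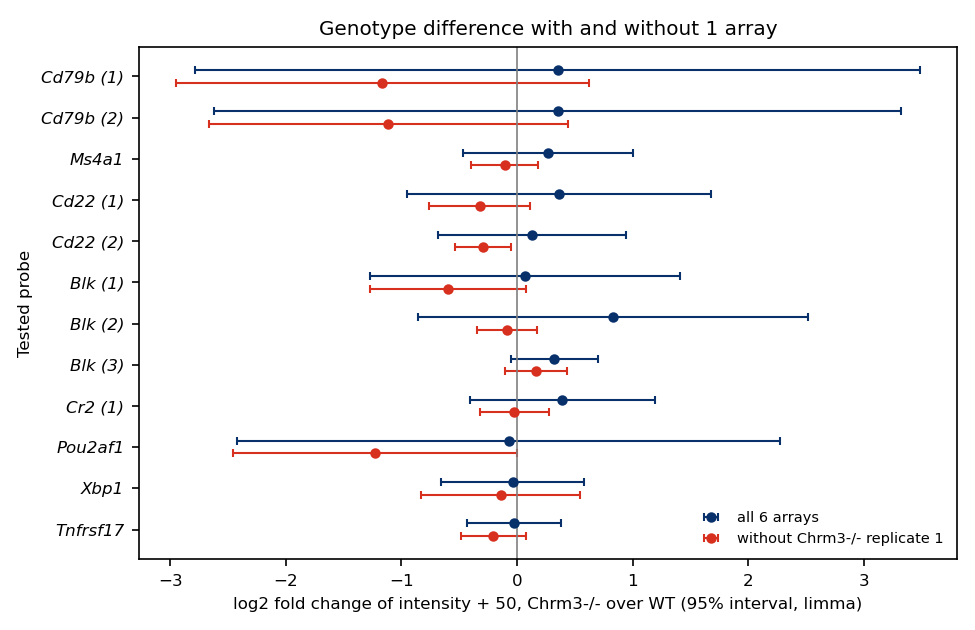
Log2 fold change of Chrm3-/- over WT on intensity plus 50, with 95% intervals from limma, for the 12 tested probes with all 6 arrays (blue) and without Chrm3-/- replicate 1 (red). With all arrays every interval includes 0, and without that array 11 of the 12 points lie below 0.

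Leaving out Chrm3-/- replicate 1 turned the direction of most members. With all arrays 9 of the 12 probes were higher in Chrm3-/- tumors, against 11862 of 22641 tested probes. The median log2 fold change was 0.29, against 0.01 over all tested probes. Without that array 11 of the 12 were lower, against 10720 of 22641. The median was then -0.25, against 0.01 over all tested probes. On 3 of the 12, 1 each of *Cd22*, *Blk* and *Pou2af1*, the remaining knockout tumors then lay below all WT tumors, against 11.0% of all tested probes. For *Blk* this order rests on WT replicate 1 at 2.9, too near the limit of 2 for the arrays to be ranked. After adjustment 0 of the 12 passed in limma, where 0.137% of all tested probes did, and 2 had an unadjusted p under 0.05, against 7.45% of all tested probes.

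To separate follicle B cells from plasma cells in each tumor, 2 wider lists of marker genes were followed across the arrays. The follicle B cell list named 28 genes, of which 26 had a probe and 24 were tested. *Cd79a* was among those with no probe, and *Pax5* and *Bach2*, transcription factors of B cells, were too dim. In the fit over all probes 0 of the 24 passed, against 0.124% of all tested probes. All 24 were highest in Chrm3-/- replicate 1, against 24.4%, and that array led by at least 1 log2 unit for 18, against 3.37%. The brightness filter for these genes included that array. The median log2 fold change was 0.37 with all arrays and -0.41 without Chrm3-/- replicate 1. Then 23 of the 24 were lower in the knockout tumors, against 10720 of 22641 tested probes. Of the 24, 6 then lay below all WT tumors, against 11.0%.

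By the named-gene rule, *Ebf1*, *Bank1* and *Cd180* represent this list beside *Cr2*. *Ebf1*, a transcription factor that specifies B cells, read 13.3, 14.1 and 9.4 in WT tumors and 66.5, 19.8 and 13.1 in Chrm3-/- tumors. *Bank1*, a B cell scaffold protein, read under 2, 9.1 and 6.3 in WT tumors and 144, under 2 and under 2 in Chrm3-/- tumors. *Cd180*, a Toll-like receptor homolog of B cells, read 2.6, 17.0 and 4.3 in WT tumors and 50.2, 10.8 and under 2 in Chrm3-/- tumors. In each, Chrm3-/- replicate 1 was highest, and for *Bank1* and *Cd180* WT replicate 2 came next.

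Chosen after their values were seen, *Fcmr*, *Cxcr5* and *Tnfrsf13c* show the range over which the B cell genes varied. *Fcmr*, the Fc receptor for IgM, read 20.8, 476 and 234 in WT tumors and 3125, 5.3 and 42.1 in Chrm3-/- tumors. *Cxcr5*, the receptor by which B cells enter follicles, read 4.2, 75.5 and 24.2 in WT tumors and 406, 12.3 and 7.2 in Chrm3-/- tumors. *Tnfrsf13c*, the BAFF receptor, read 4.9, 161 and 65.6 in WT tumors and 724, under 2 and 5.9 in Chrm3-/- tumors. All 3 placed Chrm3-/- replicate 1 first, then WT replicate 2 and then WT replicate 3, as *Cd79b* did.

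The plasma cell list named 22 genes, of which 21 had a probe and 19 were tested. In the fit over all probes 0 passed and 1 had an unadjusted p under 0.05, a share near the 4.82% of all tested probes. The median log2 fold change was -0.03 with all arrays and -0.14 without Chrm3-/- replicate 1. Without that array 15 of the 19 were lower in the knockout tumors, against 10720 of 22641 tested probes. Of the 19, 6 then lay below all WT tumors, against 11.0%, and 2 above all of them, against 2879 of 22641. An unadjusted p under 0.05 in limma was then found for 5, against 7.45%, including *Glcci1*, which was higher. After adjustment 0 passed. Chrm3-/- replicate 1 was the highest array for 10 of the 19, against 24.4% of all tested probes. It led by at least 1 log2 unit for 5, against 3.37%, namely *Pou2af1*, *Irf4*, *Mzb1*, *Tnfrsf13b* and *Cd27*. The offset added before the log holds back such leads for dim genes. *Jchain* read 43.5 there against 9.7 in the next array, and *Slamf7* 46.8 against 9.6, yet neither counted as leading. For *Tnfrsf17* and *Pim2*, also dim, the intensity there was only 1.63-fold and 1.41-fold that of the next array. As background, *Irf4*, *Mzb1* and *Tnfrsf13b* are also made in B cells, and *Cd27* in T cells and memory B cells. *Mzb1*, an ER protein of antibody-making cells, read 221, 788 and 565 in WT tumors and 2015, 56.9 and 210 in Chrm3-/- tumors. Among the 14 that did not lead by this margin, *Xbp1*, *Sdc1*, *Txndc5*, *Sec11c*, *Creld2*, *Fkbp11* and *Fndc3b* are also made outside plasma cells, epithelium included.

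For 9 of the 19 another array was the highest. *Sdc1*, which encodes the plasma cell surface proteoglycan syndecan-1 and is also made by epithelium, read 493, 449 and 304 in WT tumors and 215, 239 and 415 in Chrm3-/- tumors. *Eaf2*, an elongation factor partner, read 17.0, 23.8 and 21.5 in WT tumors and 9.4, 15.4 and 13.0 in Chrm3-/- tumors, with all knockout tumors below all WT tumors (log2 fold change -0.18, standard error 0.10, adjusted p = 0.991 in limma). *Glcci1*, the gene with an unadjusted p under 0.05 with all arrays (0.0402 in limma), read under 2 in all WT tumors and 5.8, 9.3 and 10.1 in Chrm3-/- tumors. In contrast, *Tnfrsf13b*, the receptor TACI, read under 2, 5.0 and under 2 in WT tumors and 357, 5.8 and 28.5 in Chrm3-/- tumors (log2 fold change 1.20, standard error 0.69).

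Antibody genes themselves could be followed only in part. Of 22 immunoglobulin names searched, 4 had a probe and 3 were tested, so the level of IgA heavy chain was not measured here. *Ighg1*, the IgG1 heavy chain constant region, read 51.4, 457 and 76.0 in WT tumors and 254, 3.1 and 29.4 in Chrm3-/- tumors. WT replicate 2 was thus the highest, and Chrm3-/- replicate 1 reached 0.556-fold of it. *Jchain*, the joining chain of secreted IgA and IgM, read 6.4, 6.7 and 9.7 in WT tumors and 43.5, 4.6 and 3.5 in Chrm3-/- tumors, highest in Chrm3-/- replicate 1. *Vpreb1*, a surrogate light chain of early B cells, read 20.3, under 2 and 13.2 in WT tumors and 13.0, 5.8 and 7.9 in Chrm3-/- tumors, in no order like that of *Cd79b*.

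**Figure D3:**
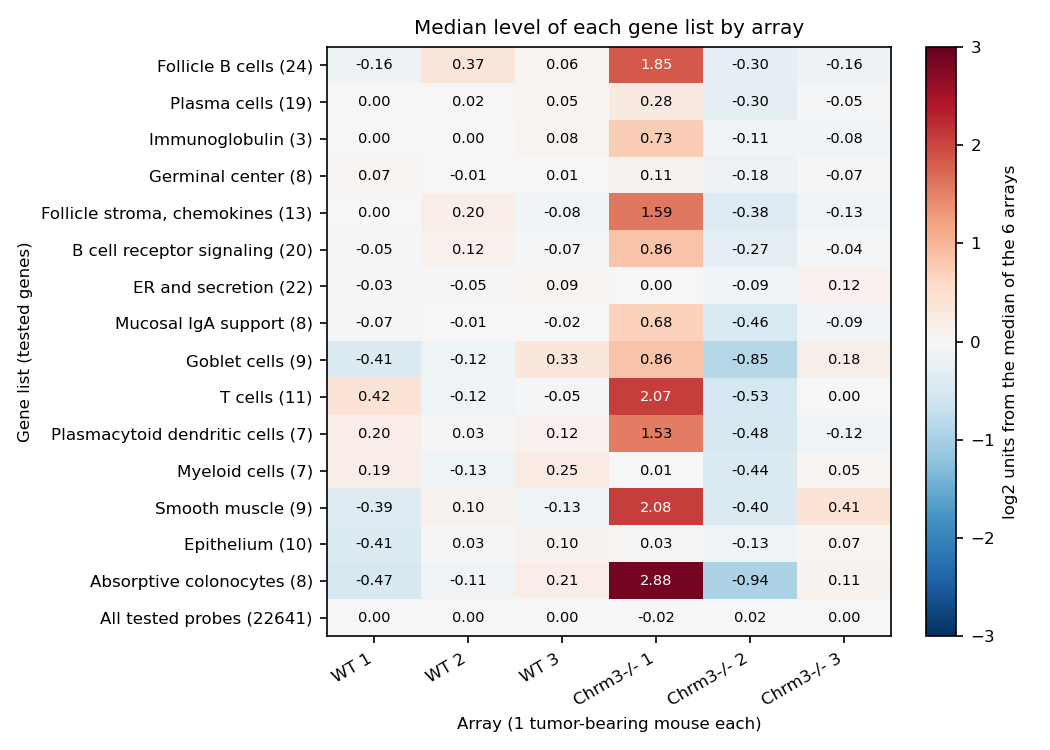
Median, over the tested genes of each list, of the log2 deviation of an array from the median of the 6 arrays, with the number of genes in parentheses. Chrm3-/- replicate 1 is at 1.85 for follicle B cells and 0.28 for plasma cells, and also high for T cells, smooth muscle and absorptive colonocytes.

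Array by array, the follicle B cell list deviated from the gene-wise median of the 6 arrays by a median of -0.16, 0.37 and 0.06 log2 units in WT tumors and 1.85, -0.30 and -0.16 in Chrm3-/- tumors. The corresponding medians of the plasma cell list were 0.00, 0.02 and 0.05 in WT tumors and 0.28, -0.30 and -0.05 in Chrm3-/- tumors. Chrm3-/- replicate 2 was thus the lowest array for both lists. The median of Chrm3-/- replicate 1 was far above the other arrays in the former list and less so in the latter. The plasma cell list includes many genes that epithelium also makes, and their part in this difference was not tested. The follicle B cell list likewise holds genes that other cells make, such as *Cr2* in follicular dendritic cells. Whether the B cells lay in follicles was not tested. In Chrm3-/- replicate 1 the T cell list was at 2.07, so a value of 1.85 was not particular to B cell genes.

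The tumors with the highest B cell signal, Chrm3-/- replicate 1 and WT replicate 2, were compared directly for genes with an intensity of at least 10 in both. The ratio of the former to the latter had a median of 4.93 over 23 follicle B cell genes, with a range of 1.08 to 11.2. Over 13 plasma cell genes the median was 1.49, and over all tested probes it was 0.970. The minimum of 10 drops genes that were dim in either tumor, and among genes at 10 or more in at least 1 of them, Chrm3-/- replicate 1 was higher for 24 of 24 follicle B cell genes and 13 of 17 plasma cell genes. The highest ratio among the plasma cell genes was 22.7, for *Cd27*. The ratio is one array over another with no replicate, and the choice of these 2 arrays followed from their values.

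**Figure D4:**
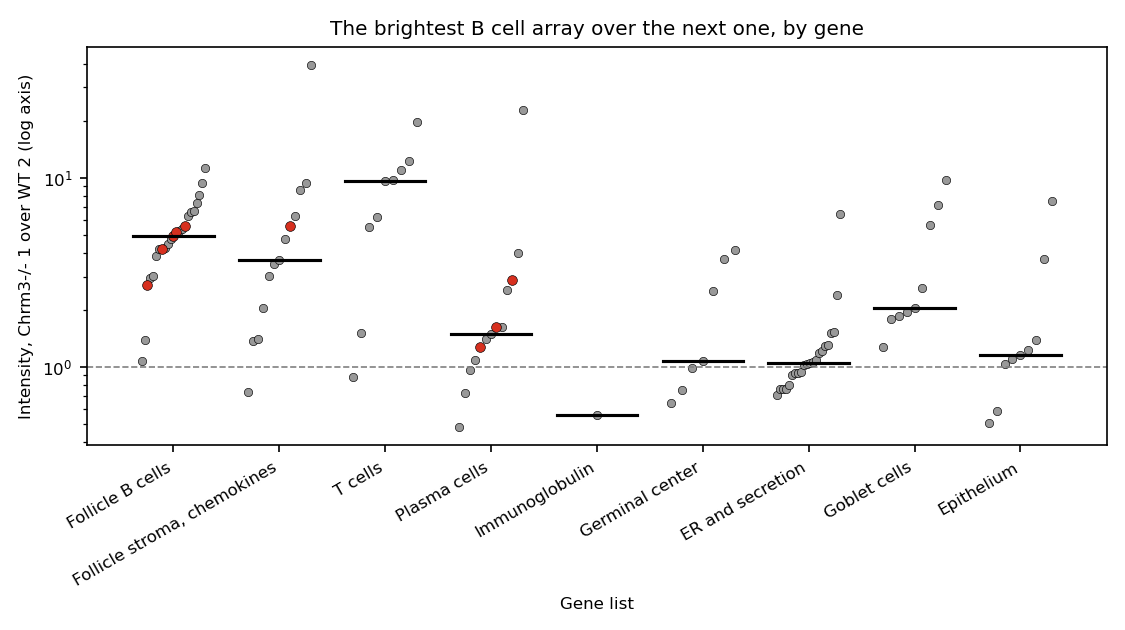
Intensity of Chrm3-/- replicate 1 over WT replicate 2 on a log axis, with 1 point per gene at 10 or more on both arrays, red for members, and a bar at the median of each list. The median is 4.93 for follicle B cells, 3.68 for follicle stroma and chemokines, 9.65 for T cells, 1.49 for plasma cells and 1.04 for ER and secretion genes.

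Genes of the follicle's stroma and chemokines were mostly highest in the same tumor. Of 13 tested, 11 were highest in Chrm3-/- replicate 1, against 24.4% of all tested probes, and 9 led there by at least 1 log2 unit, against 3.37%. In the fit over all probes 0 passed. *Cr2* and *Ltb*, which belong to the follicle B cell list as well, are 2 of these 9. *Ccl19*, a chemokine of the T cell zone, read under 2, 50.0 and 3.4 in WT tumors and 1971, under 2 and 6.5 in Chrm3-/- tumors. *Madcam1*, an adhesion molecule of gut venules and follicular stroma, read 37.3, 32.7 and 26.8 in WT tumors and 281, 17.7 and 19.0 in Chrm3-/- tumors. *Lta*, lymphotoxin alpha, read 9.6, 20.5 and 3.4 in WT tumors and 129, 9.5 and under 2 in Chrm3-/- tumors. *Cxcl13*, the chemokine that draws B cells into follicles, named after its values were seen, read 99.1, 592 and 624 in WT tumors and 2795, 46.6 and 205 in Chrm3-/- tumors. Its 3 highest tumors were the 3 with the highest *Cd79b*, although WT replicate 3 slightly exceeded WT replicate 2.

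Germinal center genes, which mark B cells dividing within a follicle, were few and gave no clear excess in Chrm3-/- replicate 1. *Gcsam*, *Mybl1* and *Rgs13* were under 2 on every array. Of 8 tested genes, 3 were highest in Chrm3-/- replicate 1, namely *Cd86*, *Mef2c* and *Fas*, against 24.4% of all tested probes. In this list 0 led by 1 log2 unit, against 3.37%. *Cd86*, a costimulatory ligand that myeloid cells also make, read 116, 72.9 and 99.1 in WT tumors and 270, 55.5 and 107 in Chrm3-/- tumors, a 2.33-fold lead over the next array. The leads of *Mef2c* and *Fas* were 2.13-fold and 1.78-fold. *Bcl6*, the master transcription factor of germinal center B cells, read 536, 596 and 439 in WT tumors and 449, 466 and 460 in Chrm3-/- tumors. *S1pr2*, a receptor that holds B cells in the germinal center, read 312, 455 and 371 in WT tumors and 293, 307 and 379 in Chrm3-/- tumors. *Bcl6* and *S1pr2* are also made outside B cells, and neither passed, with log2 fold changes of -0.17 and -0.18 (adjusted p = 0.991 in limma for each). *Basp1* had the smallest p of this list (unadjusted p = 0.0966, adjusted p = 0.991 in limma). It read under 2 in all WT tumors and under 2, 12.5 and 15.1 in Chrm3-/- tumors.

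Genes downstream of the B cell receptor, many of them shared with T cells and myeloid cells, lay between these patterns. Of 20 tested, 17 were highest in Chrm3-/- replicate 1, against 24.4% of all tested probes. In this list 5 led there by at least 1 log2 unit, against 3.37%, and 0 passed. *Nfatc1*, a calcium-regulated transcription factor, read 104, 137 and 136 in WT tumors and 296, 140 and 133 in Chrm3-/- tumors. *Cd81*, a tetraspanin that most cells make, read 10809, 8410 and 10744 in WT tumors and 6660, 10099 and 6945 in Chrm3-/- tumors. In contrast, the ER and secretion genes on which plasma cells draw were highest in that tumor for 2 of 22, against 24.4% of all tested probes. Their median ratio of Chrm3-/- replicate 1 to WT replicate 2 was 1.04. *Dnajc3*, an ER chaperone, had the smallest p of this list, at 206, 205 and 217 in WT tumors and 314, 353 and 443 in Chrm3-/- tumors. All knockout tumors were above all WT tumors for this gene, by 0.69 log2 units (standard error 0.18), which did not pass (adjusted p = 0.677 in limma). *Hsp90b1* went the other way, at 6071, 5755 and 5949 in WT tumors and 4611, 4210 and 5408 in Chrm3-/- tumors. Its log2 fold change was -0.33 (adjusted p = 0.991 in limma). Of the 22 genes, 2 lay above all WT tumors and 3 below, where 10.6% of all tested probes did not overlap. Chrm3-/- replicate 1 led by at least 1 log2 unit for 1 of the 22, against 3.37%. This gene, *Ern2*, read 281, 523 and 532 in WT tumors and 3354, 318 and 1369 in Chrm3-/- tumors.

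Mucosal genes that serve IgA plasma cells were mostly highest in Chrm3-/- replicate 1, but by less than 1 log2 unit. Of 8 tested, 6 were highest in Chrm3-/- replicate 1, against 24.4% of all tested probes. In this list 0 led by 1 log2 unit, against 3.37%, and 0 passed. *Ccl28*, a colon chemokine for IgA-secreting cells, read 5.8, 21.8 and 35.0 in WT tumors and 37.6, under 2 and 4.0 in Chrm3-/- tumors. The 3 tumors highest for *Ccl28* were also the 3 highest for *Tnfrsf17*. *Ccl25*, the related chemokine of the small intestine, read 69.6, 70.2 and 83.7 in WT tumors and 223, 85.9 and 99.6 in Chrm3-/- tumors, without overlap (log2 fold change 0.51, standard error 0.29, adjusted p = 0.991 in limma).

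Markers of other cell types moved with the B cell genes in Chrm3-/- replicate 1. It was highest for 9 of 11 T cell genes, for all 9 smooth muscle genes and for 7 of 8 absorptive colonocyte genes. It led by at least 1 log2 unit for 8, 7 and 7 of them. Over all tested probes the shares were 24.4% highest and 3.37% leading. The list medians of this tumor were 2.07, 2.08 and 2.88 log2 units above the gene-wise median of the arrays, and those of the other 5 tumors ran from -0.53 to 0.42, from -0.40 to 0.41 and from -0.94 to 0.21. *Cd3e*, a chain of the T cell receptor complex, read 222, 80.7 and 77.1 in WT tumors and 783, 19.4 and 76.7 in Chrm3-/- tumors. *Myh11*, the smooth muscle myosin, read 157, 273 and 238 in WT tumors and 1754, 181 and 569 in Chrm3-/- tumors. Among other cell types, this tumor was highest for 7 of 9 goblet cell genes, 4 of 10 epithelial genes, 4 of 7 plasmacytoid dendritic cell genes and 2 of 7 myeloid genes. The part of these tissues in the B cell values was not tested.

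T cell genes did not follow the B cell genes in the WT tumors. Among genes at 10 or more on at least 1 of these 2 arrays, WT replicate 1, lowest of the WT tumors for *Cd79b*, was above WT replicate 2 for all 9 T cell genes. For follicle B cell genes it was below WT replicate 2 in 20 of 23, and for plasma cell genes in 7 of 14, against 50.7% of all tested probes. This order was not particular to follicle B cell genes. WT replicate 1 was also below for 8 of 9 goblet cell, 8 of 10 epithelial, 7 of 7 smooth muscle and 8 of 8 absorptive colonocyte genes. It was below for 0 of 7 myeloid, 2 of 7 plasmacytoid dendritic cell and 8 of 22 ER and secretion genes. These counts likewise rest on 1 array each.

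Outside the lists, the genes most like the B cell members across the 6 arrays were ranked by Pearson correlation with the mean of their standardized tested probes. *Chst3*, a sulfotransferase of chondroitin chains, came first (r = 0.999, and 0.995 without Chrm3-/- replicate 1), at under 2, 33.9 and 12.1 in WT tumors and 223, 2.9 and 3.8 in Chrm3-/- tumors. *Cnr2*, the cannabinoid receptor of immune cells, followed the same order at the top (r = 0.994, and 0.984 without that array) and read 2.5, 20.7 and 7.1 in WT tumors and 157, under 2 and 3.5 in Chrm3-/- tumors. *Il22ra2*, *Uvrag*, *Ogfrl1*, *Pcsk1n*, *Gab3*, *Fnbp1*, *Olfml1* and *Hspb7* completed the 10 most alike. With 6 arrays, 1 of them far from the rest, 470 tested probes had r over 0.95, so these names describe a rank and not a link to B cells. For *Tnfrsf17* and *Xbp1* together the 5 most alike were *AA467197*, *Mlx*, *Atp12a*, *Ckmt1* and *Gne*, out of 196 probes with r over 0.95. *Ckmt1*, a mitochondrial creatine kinase of epithelium, read 3182, 4420 and 6426 in WT tumors and 11217, 1558 and 5366 in Chrm3-/- tumors.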

How the data were processed

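Colon tumor RNA of 3 WT and 3 Chrm3-/- mice was read on the MouseWG-6 v2.2 BeadChip, 1 array per mouse. The deposited intensity values are linear, and the paper states that they were normalized with cubic splines and no background subtraction. On every array the lowest value is 1 and 46.1% of probes lie under 2. How these low values arose was not known here. A second table holds signals from before this step in 6 columns that could be matched to no sample, and was left out. Intensities were analyzed as log2(value + 50), which understates changes of dim probes. The brighter 22641 of 45281 probes, by mean log2 value, were tested in limma 3.58.1 under R 4.3.3, with a genotype term, a variance trend, two-sided p-values and Benjamini-Hochberg adjustment over all tested probes at 0.05. There were 4 residual and 2.87 prior degrees of freedom. The step was tested on simulated data. Precision is limited by the number of arrays.

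The platform annotation gave 1 symbol for 34885 probes and several for 18, and did not list 10378. A gene of a list was represented by its brightest tested probe. The members and lists were chosen with earlier results of these data known. Named were all members, up to 4 genes with the smallest p in each list described, markers of the tissue and the genes most alike. *Fcmr*, *Cxcr5*, *Tnfrsf13c*, *Cxcl13*, *Krt8* and the plasma cell genes listed as leading were chosen after their values were seen. Alternatives were other offsets and filters, a plain log2 scale, no variance trend, averaged probes, the methods' test, a replicate block and leaving out each array. Tables and plots used Python 3.11.15, pandas 2.3.3, numpy 2.4.6 and matplotlib 3.10.9.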

Additional observations from a re-analysis of the deposited data

How the results depend on the processing

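Over the alternatives 0 of 172 values of single member probes passed, and their lowest adjusted p in limma was 0.615. The log2 fold change had the other sign in 25 of the 172, and 8 of these came from leaving out Chrm3-/- replicate 1. Of all tested probes 28 passed. With no offset before the log the count was 45, with dim probes kept it was 12 and by the methods' test it was 9, and it was 4 to 31 when 1 array was left out. Without Chrm3-/- replicate 1 it was 31, of which 22 were among the 28. Without WT replicates 1, 2 and 3 it was 6, 5 and 4, and without Chrm3-/- replicate 3 it was 4. The causes of these differences were not tested. With the replicate number as a block 1 probe passed. Same-numbered samples deviated from their genotype means with correlations of -0.153, -0.027 and 0.019, so the numbers were not taken as pairs.

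The median log2 fold change of the follicle B cell list ran from -0.41 to 0.83 when 1 array was left out, and that of the plasma cell list from -0.14 to 0.16. The former was negative only without Chrm3-/- replicate 1, and was 0.24 with no offset and 0.15 over the 6 genes left with probes above 100 in at least 3 arrays. The latter was -0.36 with no offset. A planned quantile normalization of the signals before normalization was not run, because their columns match no sample. Many member values lie near or under 2, where arrays cannot be ranked.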
